A study of Mus musculus with 80 samples.

Results

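The B and T lymphocyte genes described here are 35 genes chosen by name, 11 of them genes of B lymphocytes and 24 genes of T lymphocytes, out of 32764 genes counted in each library. All 35 were present in the count tables. The study sequenced poly(A) RNA of liver, muscle and both a brown and a white fat depot, written BAT and iWAT (inguinal fat), from male C57BL/6J mice that were WT or homozygous for UCP1 KO, FGF21 KO or both (double knockout, dKO). Every genotype had 5 libraries in every tissue, so that 80 were deposited. Mice of every genotype were raised at 30 °C until an age of 10 to 12 weeks and then spent 3 weeks at room temperature on a high-fat diet. UCP1 is the uncoupling protein of brown fat and FGF21 is a secreted metabolic hormone. Both deletions were in the whole body, so lymphocytes of the knockout mice carried them too. The labels write the double knockout as UCP1/FGF12. Fgf21 had at most 3 counts in every dKO and FGF21 KO library of all 4 tissues, whereas 0 to 21 counts of Fgf12 were found across all 80 libraries. Ucp1 transcripts were still counted in BAT of UCP1 KO mice (24291 to 60779 counts) and dKO mice (40641 to 90118 counts), against 98548 to 216085 in WT. The WT libraries of iWAT held 109 to 776 counts of them, the dKO libraries 196 to 1189 and the UCP1 KO libraries 3942 to 20264.

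Lymphocytes are the cells of adaptive immunity. B lymphocytes carry an antibody-type receptor whose signal passes through CD79A and CD79B, and T lymphocytes carry a T cell receptor whose signal passes through the CD3 chains, LCK and ZAP70. Adipose tissue holds resident lymphocytes among its adipocytes, and the inguinal fat pad of the mouse encloses a lymph node, where B cells fill follicles, T cells fill the zone around them, and both enter through high endothelial venules.

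Counts per library ranged from 28691377 to 50380696 (median 38022853). Levels are given as CPM, counts per 1000000 after scaling with TMM factors. A gene was called changed at an adjusted p under 0.01 of edgeR's quasi-likelihood test, adjusted with the Benjamini-Hochberg method over all genes tested in the tissue, and log2 fold changes are given with their standard error (SE). In a bulk library, fewer lymphocytes and less lymphocyte RNA per cell cannot be told apart. The labels do not say whether libraries came from separate mice, and the study's methods give 5 animals per genotype.

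In iWAT the lymphocyte genes took 2 very different levels. The 11 B genes together reached 46.9, 51.8, 75.6, 1235 and 1599 CPM in the 5 WT libraries and 50.7, 2144, 27.9, 34.6 and 40.8 CPM in UCP1 KO. They reached 2273, 41.2, 2026, 30.0 and 37.3 CPM in dKO and 1743, 30.6, 2323, 1695 and 1826 CPM in FGF21 KO. Each genotype therefore had libraries at both levels, and no library lay between 75.6 and 1235 CPM.

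The 24 T genes split the same libraries. Their sum was 66.3, 71.0, 76.4, 1176 and 1644 CPM in WT and 77.8, 1696, 64.1, 64.7 and 71.3 CPM in UCP1 KO. It was 2020.0, 67.2, 1905, 60.0 and 71.0 CPM in dKO and 1686, 55.8, 2268, 1745 and 1945 CPM in FGF21 KO. No library lay between 77.8 and 1176 CPM.

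Genes of lymph node stroma that are not lymphocyte genes divided the 20 libraries at the same place. Their score, the mean log2(CPM + 0.1) of Glycam1 and Chst4 (both of high endothelial venules), Madcam1 (a vascular address molecule) and the chemokines Ccl19 and Cxcl13, was 2.87 to 3.70 in 9 libraries and -1.23 to -0.39 in the other 11. The 9 libraries were WT 4 and 5, UCP1 KO 2, dKO 1 and 3, and FGF21 KO 1, 3, 4 and 5. Glycam1 stood at 37.6 to 72.2 CPM in these 9 and at 0 to 1.30 CPM in the other 11, and Chst4 at 2.85 to 4.63 CPM against 0 to 0.0270 CPM. Cxcl13 alone overlapped, with 45.7 to 120 CPM against 8.03 to 59.3 CPM. The plot of the lymphocyte sums against the stroma score shows both clusters of libraries.

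**Figure D1:**
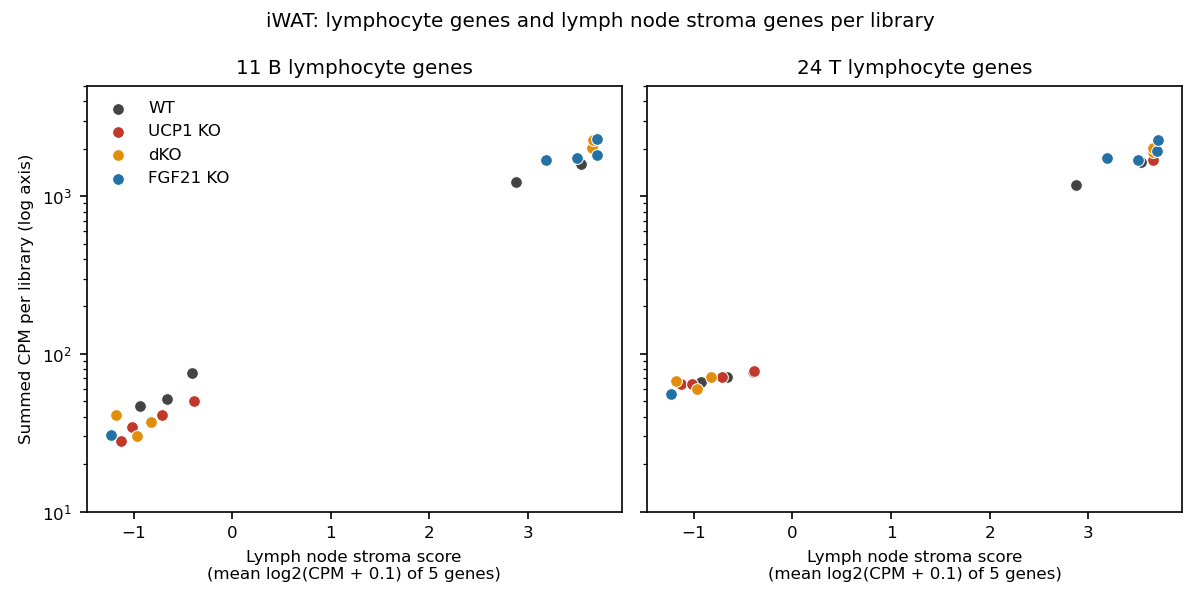
Each point is 1 iWAT library, coloured by genotype. The x axis is the lymph node stroma score, the mean log2(CPM + 0.1) of 5 genes, and the y axis is the summed CPM of the 11 B genes or the 24 T genes on a log axis. The 9 libraries with a score of 2.87 or more lie at 1176 CPM or above in both panels, and the other 11 lie at 77.8 CPM or below.

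All 35 genes were higher in each of the 9 libraries than in any of the other 11. Among the 17380 genes tested in iWAT, 19.3% were higher without overlap and 9.81% were lower without overlap between the same libraries. The split was defined by stroma genes measured in the same RNA, so these values describe the libraries and no test was made. The 35 genes made up 0.241% to 0.459% of all CPM in the 9 libraries and 0.00864% to 0.0152% in the other 11.

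Cr2, Fcer2a, Ms4a1 and Cd79a had the largest ratios of medians among the B genes. The median of Cr2, the complement receptor CD21, was 151 CPM in the 9 libraries and 0.435 CPM in the other 11, a ratio of 347. The ratio of medians was 194 for Fcer2a (the IgE receptor CD23), 159 for Ms4a1 (CD20), 153 for Cd79a, 129 for Cd22 (an inhibitory receptor of B cells), 128 for the B lineage factor Pax5, 96.8 for the kinase Blk and 84.9 for Cd79b. Cd37 and Cd40, which dendritic cells or other leukocytes also make, had the smallest ratios of the B genes, 11.3 and 8.79. Ikzf3, a transcription factor of lymphocytes, had a ratio of 53.2.

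Among the T genes the ratio of medians ran from 146 for Lef1 and 107 for Foxp3 to 8.31 for Satb1. Lef1 is a factor of naive T cells, Foxp3 the defining factor of regulatory T cells and Satb1 a chromatin organizer that many cells use. The coreceptor genes Cd8b1, Cd8a and Cd4 had ratios of 103, 75.9 and 36.9, and the CD3 chains Cd3d, Cd3e and Cd3g had 44.1, 43.9 and 40.4. Cd52, a small surface glycoprotein of leukocytes, and Cd2, an adhesion receptor, had low ratios of 10.8 and 16.2.

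The heat map of all members by library shows that no single gene departed from the split. Cd79a was at 1.80, 3.26, 6.20, 166 and 200 CPM in WT and at 1.78, 296, 1.26, 1.21 and 1.09 CPM in UCP1 KO. It was at 308, 1.96, 287, 0.637 and 1.62 CPM in dKO and at 237, 0.964, 285, 231 and 248 CPM in FGF21 KO. Ms4a1 was at 113 to 267 CPM in the 9 libraries and at 0.269 to 5.02 CPM in the other 11.

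**Figure D2:**
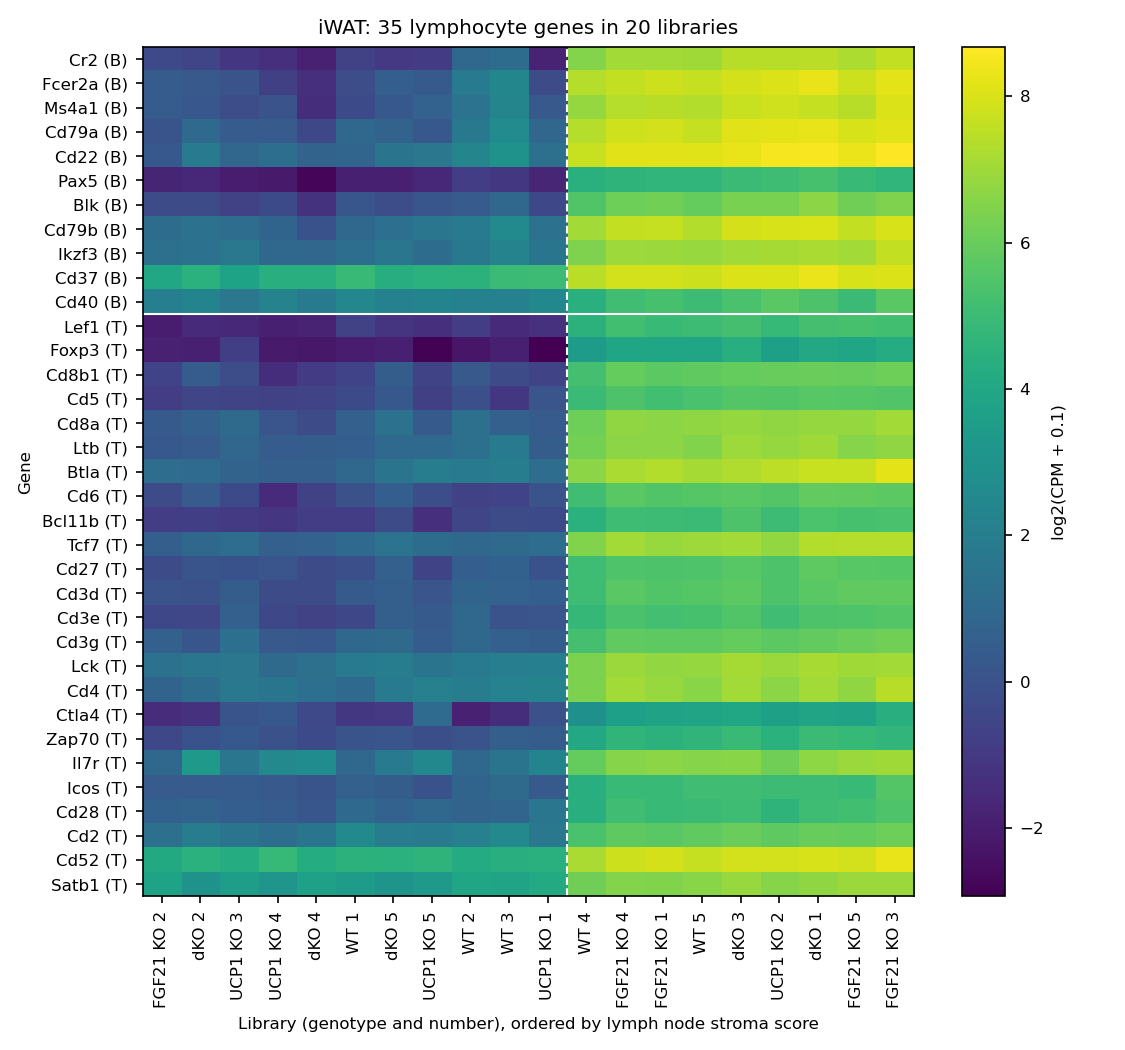
Rows are the 35 lymphocyte genes, B genes above the white line and T genes below it, and columns are the 20 iWAT libraries ordered by stroma score. Colour is log2(CPM + 0.1), and the dashed line stands at the widest gap of the score. Every row is brighter in the 9 libraries on the right than in the 11 on the left. Cd37, Cd52 and Satb1 keep the highest levels on the left, with medians of 22.0, 21.8 and 11.7 CPM.

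Of the T genes, Cd3e (an essential CD3 chain) ranged from 27.5 to 47.7 CPM in the 9 libraries and from 0.539 to 1.85 CPM in the other 11. Cd4 ranged from 84.2 to 175 CPM and from 1.61 to 4.67 CPM, and Cd8a from 69.3 to 132 CPM and from 0.759 to 2.63 CPM. Foxp3 ranged from 11.1 to 20.7 CPM and from 0.0307 to 0.480 CPM, the latter from 1 to 13 counts. The ratio of Cd4 to Cd8a was 0.913 to 1.32 in the 9 libraries and 1.30 to 3.80 in the other 11. The ratio of the B sum to the T sum was 0.939 to 1.26 and 0.435 to 0.989.

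The 3 genes with the highest median CPM in the 9 libraries were Cd22 (207 to 409 CPM, against 1.08 to 7.77 CPM in the other 11), Cd37 (180 to 318 CPM, against 13.7 to 32.4 CPM) and Cd79a. Compared per length of exon, the order of levels was different: Cd52 led with a median of 199 CPM per kb, followed by Cd79a with 170 and Cd79b with 139 CPM per kb. In the other 11 libraries Cd52 again led with 18.4 CPM per kb, followed by Cd37 with 6.26 and Cd2 with 2.02 CPM per kb.

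The other lists moved unequally between these libraries. Of 12 further B genes 11 did not overlap, and of 16 further T genes 15, of 11 NK and cytotoxic genes 7, of 6 dendritic cell genes 4 and of 6 plasma cell genes 2. All 8 macrophage genes, 5 cell cycle genes, 5 hepatocyte genes, 5 neutrophil and erythroid genes and 10 skeletal muscle genes overlapped. Of 5 adipocyte genes 2, Plin1 and Fabp4, were lower in the 9 libraries without overlap. The macrophage sum was 1512 to 2576 CPM in the 9 libraries and 851 to 2351 CPM in the others, which overlapped. The adipocyte sum was 4084 to 12700.1 CPM in the 9 libraries and 14524 to 23167 CPM in the others, which did not overlap. The part of these cells in the lymphocyte values was not tested.

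The genotype comparison in iWAT asks whether loss of UCP1 or FGF21 went along with more or fewer lymphocyte transcripts. With all 20 libraries, edgeR called 0 of the 35 genes in the test over the 4 genotypes, in each pairwise comparison and in the interaction, and 0 genes had an unadjusted p under 0.05 in any of them. DESeq2 also called 0. Over all tested genes 1.74% were called across the 4 genotypes, 0.61% in UCP1 KO, 0.00575% in FGF21 KO and 0.0173% in dKO against WT, 0.466% in UCP1 KO against dKO, 0.0115% in dKO against FGF21 KO and 0% for the interaction. In the same order 22.5%, 14.7%, 17.4%, 5.91%, 14.2%, 8.62% and 9.98% of all genes had an unadjusted p under 0.05. The smallest adjusted p of edgeR was 0.407, for Cd40 in FGF21 KO against WT. The median log2 fold change of the members was 1.32 in FGF21 KO against WT, 0.47 in dKO against WT and -0.60 in UCP1 KO against WT, beside -0.01, 0.02 and -0.03 for all tested genes. Above the gap of the stroma score were 4 of 5 libraries in FGF21 KO, 2 of 5 in dKO, 2 of 5 in WT and 1 of 5 in UCP1 KO.

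Without the 9 libraries, 3 WT, 4 UCP1 KO, 3 dKO and 1 FGF21 KO libraries remained and 34 of the 35 genes passed the filter. Again edgeR called 0 of them, where the background of all 16124 genes was 1.93% over the 4 genotypes, 4.1% in UCP1 KO against WT, 0.0062% in dKO against WT, 1.07% in UCP1 KO against dKO and 0% in the other comparisons. The median log2 fold change of the members turned to -0.62 in FGF21 KO and -0.42 in dKO against WT, with 2 and 7 of 34 values positive, and was -0.44 in UCP1 KO against WT, with 8 of 34 positive. With all 20 libraries and the lymph node stroma score as a covariate these medians were 0.07, -0.05 and -0.23. An unadjusted p under 0.05 was found for 10 of the 34 in UCP1 KO against WT (31.3% of all genes) and for 8 in dKO against WT (13.5% of all genes), the former close to the background. The lone FGF21 KO library was assumed to vary like the other groups. The smallest adjusted p was 0.0138, for Ctla4, an inhibitory receptor of activated and regulatory T cells. Ctla4 was at 0.388, 0.173 and 0.270 CPM in the 3 WT libraries and at 0.861, 0.960, 1.11 and 2.10 CPM in the 4 UCP1 KO libraries, which did not overlap (log2 fold change 2.15, SE 0.44). It was at 0.314, 0.661 and 0.391 CPM in dKO and at 0.263 CPM in FGF21 KO.

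Cd2 and Cr2 lay the other way in the same comparison. Cd2 was at 6.04, 4.24 and 5.66 CPM in WT and at 3.17, 2.81, 2.26 and 3.52 CPM in UCP1 KO (log2 fold change -0.87, SE 0.20, adjusted p 0.0195 with edgeR). Cr2 was at 0.526, 1.82 and 2.16 CPM in WT and at 0.184, 0.369, 0.303 and 0.435 CPM in UCP1 KO (log2 fold change -2.24, SE 0.54, adjusted p 0.0257 with edgeR). For both genes every UCP1 KO library was below every WT library. The 2 WT libraries with most Cr2, WT 2 and WT 3, also had more Glycam1 (1.30 and 1.16 CPM) than the other 9 of these 11 libraries (0 to 0.111 CPM) and the highest B sums of the 11 (51.8 and 75.6 CPM), and WT 3 was the only one with any Chst4. The part of lymph node transcripts in the Cr2 difference was not tested. DESeq2 called Ctla4, Cd2 and Cr2, 3 genes of the 34, in UCP1 KO against WT, where it called 13% of all genes, and Il7r, the receptor of the T cell survival factor IL-7, in dKO against WT, where it called 1.07% of all genes. Il7r was at 1.88, 1.88 and 2.80 CPM in WT and at 10.1, 6.52 and 3.58 CPM in dKO, and its adjusted p was 0.173 with edgeR.

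The members share short sequence motifs only in part. In the RefSeq promoter table of GRCm38.p6, 23 of the 35 genes had an entry, and the 250 bases before each start were searched on both strands. The letters CAGGTG, an E-box of the kind that E proteins of lymphocytes bind, were found for 13 of the 23 genes (5 of 6 B genes and 8 of 17 T genes) and for 19.4% of 27025 genes with an entry. The octamer ATGCAAAT was found for 0 of the 23 genes and 1.81% of all, and TGTGGT, a core of RUNX sites, for 4 of the 23 genes and 15.9% of all. Motifs named EBF, ETS, kappaB and TATA were searched too. They were found for 1, 1, 0 and 1 of 6 B genes and 0, 2, 1 and 1 of 17 T genes. Of all genes, 0.914%, 4.27%, 0.159% and 5.85% had them. The 23 genes had 37 entries, and a match in any entry of a gene counted. A match is a description of these letters and no evidence of binding.

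The 3 promoters below are shown since Cd79a carries the B signal, Cd3d the T signal and Cd5 a large difference in BAT. Only bases before the first exon of the annotated gene are printed, 5′ to 3′ on the strand of the gene, with CAGGTG or its reverse complement in capitals. Cd79a is read from chr7:24897247-24897380 (plus strand), Cd3d from chr9:44981536-44981785 (plus strand) and Cd5 from chr19:10739003-10739224 (minus strand) of GRCm38.p6.
Cd79a: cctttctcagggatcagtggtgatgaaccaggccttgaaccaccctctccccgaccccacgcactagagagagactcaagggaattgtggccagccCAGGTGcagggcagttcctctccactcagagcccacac
Cd3d: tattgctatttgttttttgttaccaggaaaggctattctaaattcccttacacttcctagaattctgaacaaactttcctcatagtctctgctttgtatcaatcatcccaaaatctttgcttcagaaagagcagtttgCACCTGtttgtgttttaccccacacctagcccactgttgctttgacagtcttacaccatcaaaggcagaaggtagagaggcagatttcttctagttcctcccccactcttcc
Cd5: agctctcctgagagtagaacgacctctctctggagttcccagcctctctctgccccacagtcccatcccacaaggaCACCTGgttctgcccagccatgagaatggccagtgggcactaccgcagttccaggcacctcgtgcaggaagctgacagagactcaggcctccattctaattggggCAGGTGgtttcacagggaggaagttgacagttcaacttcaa

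In BAT the summed level of the T lymphocyte genes was higher in all libraries of mice without UCP1, with or without FGF21, than in those of mice with it. The 24 T genes together were at 16.9, 16.0, 16.9, 14.5 and 17.9 CPM in WT and at 15.8, 17.8, 18.3, 19.1 and 17.6 CPM in FGF21 KO. They were at 23.8, 56.6, 24.6, 30.1 and 41.2 CPM in UCP1 KO and at 23.4, 55.9, 24.6, 23.9 and 42.8 CPM in dKO. All 10 libraries of UCP1 KO and dKO were above all 10 of WT and FGF21 KO. This held for the sum only. Of the 32 genes tested one by one, 0 were higher without overlap between these libraries, beside 4.09% of all genes. The tested T genes exceeded every WT and FGF21 KO library in 2 (Satb1) to 9 (Cd5, Cd52 and Il7r) of the 10. For Cd3d, Cd3e and Cd3g this number was 5, 3 and 4. In dKO 4, Ctla4 gave 5.58 of the 23.9 CPM. Satb1 made up 9.41% to 45.3% of the T sum, and without it the groups still did not overlap, with 8.26 to 11.9 CPM in WT, 8.88 to 13.1 CPM in FGF21 KO, 17.4 to 47.3 CPM in UCP1 KO and 15.6 to 50.6 CPM in dKO. Of the 23 T genes tested one by one, 5 were called in UCP1 KO and 8 in dKO against WT, where 25.2% and 21.1% of all genes were called. The 11 B genes together overlapped between genotypes, with 6.77 to 8.46 CPM in WT, 5.27 to 8.51 CPM in FGF21 KO, 7.72 to 15.4 CPM in UCP1 KO and 6.06 to 20.6 CPM in dKO.

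**Figure D3:**
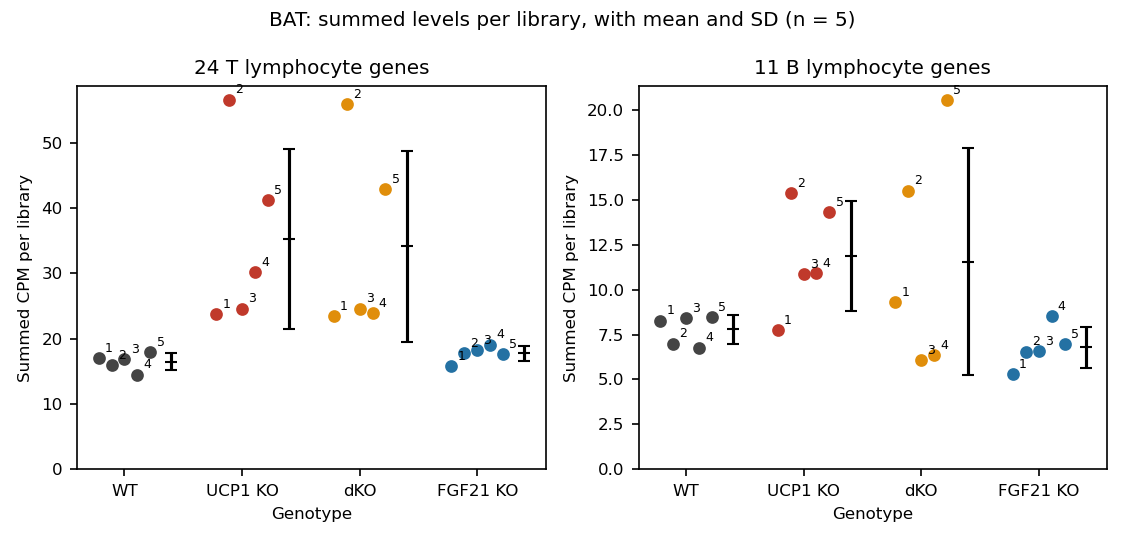
Points are the 5 BAT libraries of each genotype with their numbers, and the bar beside them is the mean with the SD. The y axes give the summed CPM of the 24 T genes (left) and the 11 B genes (right), starting at 0. The T sums of UCP1 KO and dKO, 23.4 to 56.6 CPM, lie above those of WT and FGF21 KO, 14.5 to 19.1 CPM, while the B sums overlap.

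The filter kept 32 of the 35 genes in BAT (9 B and 23 T genes). Over the 4 genotypes 11 of the 32 were called, 34.4%, against 29.7% of all 15729 genes tested, so the share of called genes was close to that of BAT genes at large. In UCP1 KO against WT 6 genes rose and 0 fell, which is 18.8% of the members beside 25.2% of all genes called, 13.8% higher and 11.4% lower. In dKO against WT 8 genes rose and 0 fell, 25% beside 21.1% of all genes called, 11.1% higher and 10% lower. In dKO against FGF21 KO 3 genes rose and 0 fell, 9.38% beside 13.5% of all genes called, 6.74% higher and 6.8% lower.

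The fold changes of the members lay mostly on one side. The median log2 fold change of the 32 was 1.11 in UCP1 KO against WT, 1.34 in dKO against WT and 1.41 in dKO against FGF21 KO, with the median of all tested genes near 0. With Foxp3, at 3 counts or fewer in WT and FGF21 KO, set to the bound that 3 counts per library allow, these medians were 1.08, 1.34 and 1.36. In each of the 3 comparisons 31 of the 32 fold changes were positive. The median was 1.20, 1.44 and 1.52 for the T genes and 0.52, 0.56 and 1.04 for the B genes.

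No member was called where UCP1 status was the same. In FGF21 KO against WT edgeR and DESeq2 called 0 of the 32, 0 had an unadjusted p under 0.05, and the median log2 fold change was -0.15. In UCP1 KO against dKO edgeR and DESeq2 called 0, 0 had an unadjusted p under 0.05 with edgeR, and the median was -0.17. The interaction of both losses gave 0 calls with either tool and 1 gene with an unadjusted p under 0.05. The background of called genes was 0% in FGF21 KO against WT, 0.0636% in UCP1 KO against dKO and 0% for the interaction, and 8.55%, 12.9% and 5.37% of all genes had an unadjusted p under 0.05 there.

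Because both UCP1-deficient genotypes lay on one side, the mean of UCP1 KO and dKO was also compared with the mean of WT and FGF21 KO, a contrast chosen after these values were seen. In it 23 of the 32 genes rose and 0 fell (71.9%, beside 38.4% of all genes called, 20.6% higher and 17.8% lower). The 23 were 20 of 23 T genes and 3 of 9 B genes (Cd22, Cd37 and Ikzf3). Fold changes of the 23 ranged from 0.78 for Cd37 to 2.50 for Cd6 on the log2 scale. Not called were the T genes Satb1, Icos and Zap70 and the B genes Cd79a, Cd79b, Ms4a1, Fcer2a, Blk and Cd40.

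Cd52, the surface glycoprotein of leukocytes, had the smallest adjusted p of the members in UCP1 KO and in dKO against WT. It was at 2.43, 2.00, 2.31, 1.79 and 2.52 CPM in WT and at 2.37, 2.58, 2.90, 3.81 and 3.35 CPM in FGF21 KO. It was at 4.83, 15.9, 5.79, 9.22 and 10.2 CPM in UCP1 KO and at 4.24, 10.6, 4.60, 3.50 and 7.23 CPM in dKO. UCP1 KO and dKO were each above WT without overlap, and the log2 fold changes were 2.05 (SE 0.32, adjusted p 7.83e-05 with edgeR) and 1.45 (SE 0.31, adjusted p 0.00176 with edgeR). Cd52 spans chr4:134082448-134095082 (GRCm38), where Crybg2 overlaps it on the other strand. The libraries were stranded, but the sources used here do not give the strand setting used in counting, so reads of overlapping genes cannot be told apart.

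Il7r, the interleukin 7 receptor, was at 0.335, 0.632, 0.455, 0.228 and 0.550 CPM in WT and at 0.593, 0.800, 0.258, 0.588 and 0.219 CPM in FGF21 KO. It was at 1.26, 2.65, 1.02, 1.52 and 1.61 CPM in UCP1 KO and at 0.830, 2.69, 0.849, 0.566 and 2.19 CPM in dKO. No UCP1 KO library fell to the WT range, and dKO overlapped WT in 1 library (dKO 4). It rose by a log2 fold change of 1.87 (SE 0.45) in UCP1 KO and of 1.69 (SE 0.45) in dKO against WT, with adjusted p of 0.00306 and 0.00706 from edgeR.

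Cd5 and Cd6, related scavenger receptors that tune T cell receptor signals and lie near each other on chromosome 19, had the largest fold changes of the members in dKO against WT. Cd5 was at 0.183, 0.0351, 0.105, 0.0651 and 0.0869 CPM in WT and at 0.132, 0.118, 0.129, 0.208 and 0.125 CPM in FGF21 KO. It was at 0.241, 1.17, 0.346, 0.253 and 0.523 CPM in UCP1 KO and at 0.277, 1.15, 0.283, 0.103 and 1.02 CPM in dKO. In 9 of the 10 UCP1 KO and dKO libraries it was above the highest WT or FGF21 KO library.

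The log2 fold change of Cd5 was 2.35 (SE 0.65, adjusted p 0.00751 with edgeR) in UCP1 KO and 2.53 (SE 0.64, adjusted p 0.00557) in dKO against WT. Cd6 ranged from 0.0699 to 0.274 CPM in WT, from 0 to 0.208 CPM in FGF21 KO, from 0.215 to 1.27 CPM in UCP1 KO and from 0.236 to 1.88 CPM in dKO. It rose by 2.65 on the log2 scale in dKO against WT (SE 0.74, adjusted p 0.00945 with edgeR) and by 3.09 in dKO against FGF21 KO (SE 0.76, adjusted p 0.00609 with edgeR). In UCP1 KO against WT its log2 fold change was 1.90 with an adjusted p of 0.0494.

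Cd28, which gives T cells their second signal, ranged from 0.0869 to 0.426 CPM in WT, 0.389 to 1.12 CPM in UCP1 KO, 0.424 to 1.05 CPM in dKO and 0.198 to 0.355 CPM in FGF21 KO. It rose in UCP1 KO against WT (log2 fold change 1.41, SE 0.40, adjusted p 0.00858 with edgeR) and in dKO against WT (log2 fold change 1.56, SE 0.40, adjusted p 0.00535 with edgeR). Btla, an inhibitory receptor of B and T cells, ranged from 0.629 to 0.843 CPM in WT, 0.417 to 0.936 CPM in FGF21 KO, 1.07 to 2.51 CPM in UCP1 KO and 0.684 to 2.62 CPM in dKO. It rose in UCP1 KO against WT (log2 fold change 1.23, SE 0.34, adjusted p 0.00857 with edgeR), while dKO overlapped WT and was not called (adjusted p 0.0294 with edgeR). Icos, a relative of Cd28, had a log2 fold change of 0.35 in UCP1 KO and 0.83 in dKO against WT and was not called.

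Ctla4 was highest in libraries other than those with most T transcripts. It was at 0.973, 0.913, 0.874, 0.813 and 1.16 CPM in WT and at 1.12, 1.15, 1.06, 1.28 and 1.19 CPM in FGF21 KO. It was at 3.76, 0.950, 1.16, 1.77 and 2.79 CPM in UCP1 KO and at 2.01, 2.04, 1.63, 5.58 and 1.63 CPM in dKO. All dKO libraries were above all WT libraries (log2 fold change 1.44, SE 0.37, adjusted p 0.00575 with edgeR). The highest Ctla4 was in dKO 4 and UCP1 KO 1, whose T sums of 23.9 and 23.8 CPM were among the lowest of their genotypes, while UCP1 KO 2, with the highest T sum, had 0.950 CPM.

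Per length of exon, the median of Ctla4 in BAT was 0.504 CPM per kb against 0.0664 for Cd28, whereas in the 9 iWAT libraries with lymph node stroma transcripts it was 5.81 against 5.40 CPM per kb. The ratio of Ctla4 to Cd28 CPM was 0.844 to 13.3 in BAT libraries and 0.350 to 0.502 in those 9 iWAT libraries. Ctla4 overlaps the pseudogene Rpl18-ps1 on the same strand.

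Of the signalling chain, Lck (the kinase that starts T cell receptor signals) ranged from 0.492 to 0.666 CPM in WT, 0.355 to 0.876 CPM in FGF21 KO, 0.805 to 3.27 CPM in UCP1 KO and 0.566 to 4.002 CPM in dKO, and dKO overlapped both WT and FGF21 KO. It rose in dKO against WT (log2 fold change 1.70, SE 0.48, adjusted p 0.00983 with edgeR), and in UCP1 KO against WT it had a log2 fold change of 1.53 and an adjusted p of 0.0152. Cd3e was at 0.274, 0.176, 0.280, 0.195 and 0.492 CPM in WT and at 0.110, 0.0888, 0.226, 0.242 and 0.282 CPM in FGF21 KO. It was at 0.376, 0.875, 0.469, 0.467 and 0.393 CPM in UCP1 KO and at 0.346, 0.863, 0.448, 0.309 and 0.899 CPM in dKO. Every dKO library was above every FGF21 KO library, a log2 fold change of 1.61 (SE 0.41, adjusted p 0.00697 with edgeR).

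Cd3e did not pass the threshold against WT (adjusted p 0.0917 in UCP1 KO and 0.0504 in dKO with edgeR). Cd2 was at 0.246 to 0.608 CPM in WT, 0.323 to 0.469 CPM in FGF21 KO, 0.456 to 2.07 CPM in UCP1 KO and 0.566 to 1.91 CPM in dKO. It rose in dKO against WT (log2 fold change 1.41, SE 0.39, adjusted p 0.00936 with edgeR) and against FGF21 KO (log2 fold change 1.52, SE 0.39, adjusted p 0.0083 with edgeR).

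The subset genes Cd4, Cd8a and Foxp3 were not called in any pairwise comparison in BAT, though all 3 were in the mean of UCP1 KO and dKO against the mean of WT and FGF21 KO. Cd4, of helper T cells, ranged from 0.699 to 1.30 CPM in WT, 0.896 to 3.90 CPM in UCP1 KO, 0.754 to 2.80 CPM in dKO and 0.374 to 1.14 CPM in FGF21 KO, and its log2 fold change in UCP1 KO against WT was 1.46 (SE 0.46, adjusted p 0.0163 with edgeR). Cd8a, of cytotoxic T cells, ranged from 0.195 to 0.597 CPM in WT, 0.420 to 0.813 CPM in FGF21 KO, 0.295 to 1.90 CPM in UCP1 KO and 0.554 to 4.39 CPM in dKO, so that the groups overlapped (log2 fold change 1.91 in dKO against WT, SE 0.55, adjusted p 0.0113 with edgeR). Foxp3 had 3 counts or fewer in every WT and FGF21 KO library and at most 19 counts elsewhere. Counted against 3 counts per library, its mean in UCP1 KO was at least 1.91-fold higher than in WT, and its mean in dKO at least 1.77-fold higher.

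A further 9 genes were called in BAT in that mean contrast alone. Bcl11b, which sets the T lineage, ranged from 0.0325 to 0.122 CPM in WT, 0.0592 to 0.138 CPM in FGF21 KO, 0.107 to 0.625 CPM in UCP1 KO and 0.103 to 0.837 CPM in dKO. Tcf7, a factor of naive and memory T cells, ranged from 0.175 to 0.782 CPM in WT, 0.395 to 0.554 CPM in FGF21 KO, 0.536 to 2.00 CPM in UCP1 KO and 0.646 to 1.94 CPM in dKO. Their log2 fold changes in the mean contrast were 1.81 (SE 0.45) and 1.23 (SE 0.29), with adjusted p of 0.00241 and 0.00155 from edgeR. For these 9 genes, as for all 23 genes called in the mean contrast, the libraries with and without UCP1 overlapped. Of all genes, 8.73% did not overlap between these libraries.

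The CD3 chain Cd3d ranged from 0.0976 to 0.350 CPM in WT, 0.0645 to 0.344 CPM in FGF21 KO, 0.322 to 1.27 CPM in UCP1 KO and 0.129 to 2.04 CPM in dKO. Cd3g ranged from 0.163 to 0.421 CPM in WT, 0.0879 to 0.657 CPM in FGF21 KO, 0.436 to 1.37 CPM in UCP1 KO and 0.306 to 2.41 CPM in dKO. Cd8b1, the partner chain of Cd8a, ranged from 0.140 to 0.274 CPM in WT, 0 to 0.277 CPM in FGF21 KO, 0.215 to 1.37 CPM in UCP1 KO and 0.129 to 2.59 CPM in dKO. All 3 had their highest level in dKO 2, and their log2 fold changes in the mean contrast were 1.51 (SE 0.45), 1.39 (SE 0.42) and 1.89 (SE 0.53), with adjusted p of 0.00838, 0.00922 and 0.00593 from edgeR.

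Cd27 ranged from 0.0976 to 0.463 CPM in WT, 0.0968 to 0.242 CPM in FGF21 KO, 0.161 to 0.875 CPM in UCP1 KO and 0.257 to 1.26 CPM in dKO. Ltb, a cytokine of the TNF family that lymphocytes make, ranged from 0.304 to 0.629 CPM in WT, 0.267 to 0.420 CPM in FGF21 KO, 0.215 to 1.17 CPM in UCP1 KO and 0.437 to 1.20 CPM in dKO. Cd27 was above all WT and FGF21 KO libraries in 3 of the 10 UCP1 KO and dKO libraries and Ltb in 7, and the log2 fold changes were 1.32 (SE 0.39) and 0.95 (SE 0.26), with adjusted p of 0.00768 and 0.00502 from edgeR.

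Of the B genes, Ikzf3 ranged from 0.423 to 0.869 CPM in WT, 0.344 to 0.726 CPM in FGF21 KO, 0.805 to 2.10 CPM in UCP1 KO and 0.437 to 2.90 CPM in dKO. Cd22 ranged from 0.585 to 0.943 CPM in WT, 0.592 to 1.25 CPM in FGF21 KO, 0.724 to 2.20 CPM in UCP1 KO and 0.471 to 3.80 CPM in dKO. Their log2 fold changes in the mean contrast were 1.33 (SE 0.32) and 1.03 (SE 0.31), with adjusted p of 0.00187 and 0.00912 from edgeR.

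Among the other B genes Cd37, a tetraspanin of B cells that other leukocytes also make, ranged from 1.69 to 2.97 CPM in WT, 1.56 to 2.32 CPM in FGF21 KO, 2.87 to 5.80 CPM in UCP1 KO and 2.31 to 4.26 CPM in dKO. It rose in UCP1 KO against WT (log2 fold change 0.90, SE 0.22, adjusted p 0.0037 with edgeR), while dKO overlapped WT and was not called (adjusted p 0.0551 with edgeR). It overlaps Tead2 on the other strand. Cd79a was at 0.973, 0.527, 0.490, 0.553 and 0.869 CPM in WT, at 0.483, 0.4999, 1.04, 0.525 and 1.03 CPM in UCP1 KO and at 0.738, 1.15, 0.330, 0.283 and 2.13 CPM in dKO. Ms4a1 was at 0.260 to 0.490 CPM in WT, 0.241 to 0.611 CPM in UCP1 KO, 0.212 to 1.76 CPM in dKO and 0.154 to 0.415 CPM in FGF21 KO.

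For both of these defining B genes the genotypes overlapped, with adjusted p of 0.163 for Cd79a and 0.0593 for Ms4a1 in the mean of UCP1 KO and dKO against the mean of WT and FGF21 KO (edgeR). The 3 genes that did not pass the filter were low throughout. Cr2 and Lef1 were above the highest WT or FGF21 KO library in 0 of the 10 UCP1 KO and dKO libraries, and Pax5, with at most 0.185 CPM, in 4.

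**Figure D4:**
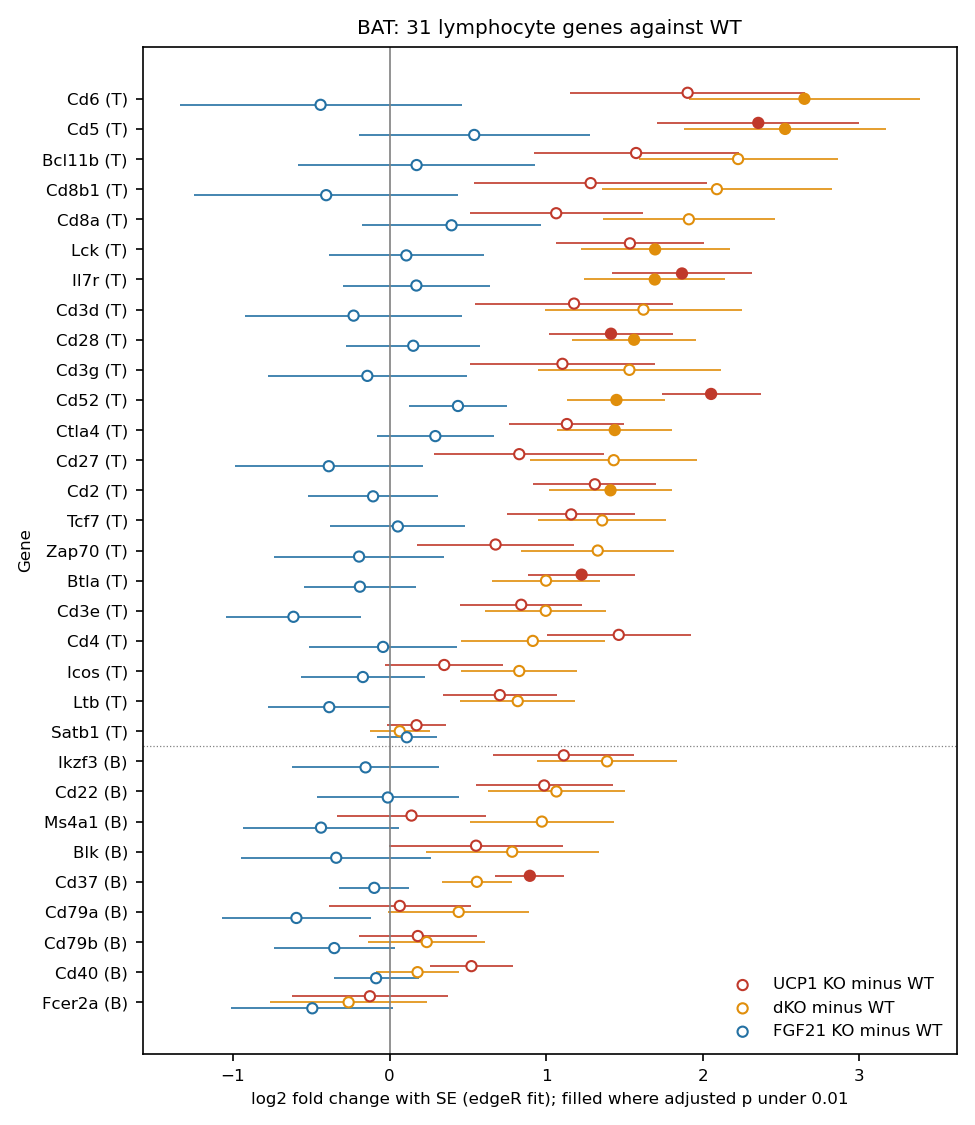
Points are log2 fold changes against WT in BAT with bars of 1 SE for UCP1 KO, dKO and FGF21 KO, for 31 of the 32 tested genes. Foxp3 is left out since it had 3 counts or fewer in every WT library. Filled points had an adjusted p under 0.01. Points of UCP1 KO and dKO lie right of 0 for all T genes, from 0.06 to 2.65, and FGF21 KO points lie on both sides of 0.

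Of the 35 genes, 13 had their highest BAT level in dKO 2, 8 in UCP1 KO 2, 7 in dKO 5, 3 in UCP1 KO 5 and 4 in other libraries, 2 of these FGF21 KO. The B genes Cd79a, Cd79b, Ms4a1, Cd22 and Blk were all highest in dKO 5, which had the highest B sum. Without UCP1 KO 2 and dKO 2, a choice made after the sums were seen, 7 of 31 genes were called over the 4 genotypes in place of 11 of 32, 5 in place of 6 in UCP1 KO against WT, 4 in place of 8 in dKO against WT, and 13 in place of 23 in the mean of UCP1 KO and dKO against the mean of WT and FGF21 KO. Of all genes this fit called 28.4%, 22.7%, 19.6% and 35.3% in the same order. The members' median log2 fold change then fell from 1.11 to 0.73 in UCP1 KO against WT, from 1.34 to 0.98 in dKO against WT and from 1.23 to 0.92 in the mean contrast.

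Single libraries changed the pairwise counts as well. In UCP1 KO against WT, 3 genes were called without UCP1 KO 2, UCP1 KO 5, WT 3 or WT 5, 2 without WT 2 and 1 without WT 4. In dKO against WT, 1 gene was called without WT 3 or WT 4, 2 without WT 2, dKO 2 or dKO 5, 3 without WT 1 or WT 5, and 5 without UCP1 KO 3, 4 or 5 or FGF21 KO 1, 3, 4 or 5. In dKO against FGF21 KO, 0 genes were called without dKO 2, dKO 5 or FGF21 KO 1, 2 or 3, 1 without FGF21 KO 4 or 5, 8 without UCP1 KO 2 and 13 without dKO 4. Over the 4 genotypes 7 were called without WT 2, WT 4 or FGF21 KO 3. In the mean of UCP1 KO and dKO against the mean of WT and FGF21 KO, 15 were called without UCP1 KO 2 or without dKO 2. Of all genes, the 20 fits that each left out 1 library called 25% to 34.1% over the 4 genotypes, 19.6% to 29.8% in UCP1 KO against WT, 15% to 23.8% in dKO against WT, 8.77% to 16.6% in dKO against FGF21 KO and 34.9% to 41% in the mean contrast.

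For single genes, the call of Cd52 was kept in all 20 of these fits in both UCP1 KO and dKO against WT, and that of Il7r in UCP1 KO was lost in 1. In dKO against WT the call of Cd2 was lost in 16 of the 20, that of Lck in 15 and that of Cd6 in 14, with adjusted p of up to 0.0403 from edgeR. The calls of Cd28, Cd5 and Il7r in dKO were each lost in 6 and that of Ctla4 in 5. In UCP1 KO against WT the call of Cd28 was lost in 12, that of Btla in 11, that of Cd5 in 6 and that of Cd37 in 4. In dKO against FGF21 KO the call of Cd2 was lost in 12 and those of Cd3e and Cd6 in 6 each. In the mean contrast the calls of Cd22, Cd3d, Cd3g and Cd8a were each lost in 14. The call of Cd27 was lost in 13 there, that of Ltb in 7, that of Cd8b1 in 6 and that of Cd4 in 2. The other genes called in that contrast kept their calls in every fit that tested them.

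Some markers of other cells also differed between genotypes in BAT. The macrophage sum was 136 to 166 CPM in WT, 133 to 219 CPM in FGF21 KO, 171 to 435 CPM in UCP1 KO and 177 to 271 CPM in dKO. Of 8 macrophage genes 5 rose in UCP1 KO and 1 in dKO against WT, beside 13.8% and 11.1% of all genes. The dKO count was thus close to the background. With the macrophage score as a covariate, 0 of the 32 lymphocyte genes were called over the 4 genotypes, 0 in UCP1 KO against WT, 1 in dKO against WT, 0 in dKO against FGF21 KO and 1 in the mean of UCP1 KO and dKO against the mean of WT and FGF21 KO. In the same order the fit called 13%, 7.6%, 16.7%, 11.1% and 18.8% of all genes. The median log2 fold change of the members was then 0.17 in UCP1 KO against WT, 1.02 in dKO against WT, 1.16 in dKO against FGF21 KO and 0.73 in the mean contrast, where it was 1.23 without the covariate. The macrophage sums of UCP1 KO and dKO lay above those of WT and overlapped those of FGF21 KO. Macrophage level was thus partly tied to genotype, and its part in the lymphocyte values cannot be told apart from that of genotype.

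The skeletal muscle sum was 31.3 to 143 CPM in WT, 34.8 to 518 CPM in FGF21 KO, 74.7 to 10630 CPM in UCP1 KO and 113 to 5643 CPM in dKO. With a covariate for the skeletal muscle score, 3 lymphocyte genes were called over the 4 genotypes, 4 in UCP1 KO against WT, 3 in dKO against WT, 2 in dKO against FGF21 KO and 16 in the mean of UCP1 KO and dKO against the mean of WT and FGF21 KO, beside 18.6%, 21.1%, 11.7%, 8.08% and 25.7% of all genes. The median log2 fold change of the members was 1.24 in UCP1 KO against WT, 1.45 in dKO against WT, 1.56 in dKO against FGF21 KO and 1.39 in the mean contrast. Library dKO 2, with the highest T sum of its genotype, had the lowest skeletal muscle sum of its genotype (113 CPM). This is 1 library, and the part of muscle tissue in the lymphocyte values was not tested. Of the 11 NK and cytotoxic genes 6 rose in UCP1 KO and 3 in dKO against WT, of 5 cell cycle genes 4 and 4, and of 5 tested dendritic cell genes 3 and 2. Of all genes 13.8% and 11.1% rose in the same comparisons. Genes of lymph node stroma stayed near 0 in BAT, with sums of 0.444 to 3.97 CPM over all 20 libraries and 1 of 5 genes passing the filter, and the whole stroma list was 97.5 to 202 CPM in the 9 iWAT libraries described above.

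Further T genes that are not among the 35 were called in both directions in BAT. Of 14 tested, 3 rose and 2 fell in UCP1 KO and 2 rose and 2 fell in dKO against WT, with medians of 0.88 and 0.93 on the log2 scale. Of all genes 13.8% rose and 11.4% fell in UCP1 KO, and 11.1% rose and 10% fell in dKO. The counts of these T genes were thus close to the background. Of 12 further B genes 2 rose and 1 fell in UCP1 KO and 3 rose and 1 fell in dKO. Of 5 tested plasma cell genes 1 rose in UCP1 KO and 0 in dKO. Of 5 adipocyte genes 1, Adipoq, fell in each. Of 5 hepatocyte genes 0 rose in UCP1 KO and 4 in dKO, of 4 neutrophil and erythroid genes 0 and 2, and of 10 skeletal muscle genes 6 and 10.

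In liver 25 of the 35 genes passed the filter, and edgeR and DESeq2 called 0 of them in any genotype comparison. The number with an unadjusted p under 0.05 with edgeR was 1 over the 4 genotypes, 4 in UCP1 KO, 1 in FGF21 KO and 3 in dKO against WT, and 0 in UCP1 KO against dKO, in dKO against FGF21 KO and in the interaction. Of all 14407 genes, 0.34% were called over the 4 genotypes, 0.0694% in UCP1 KO, 0.229% in FGF21 KO and 0.0416% in dKO against WT, 0.00694% in UCP1 KO against dKO and in dKO against FGF21 KO, and 0% for the interaction. An unadjusted p under 0.05 was found for 11.6%, 10.2%, 7.54%, 12.1%, 8.25%, 6.75% and 5.16% of them in the same 7 comparisons. The median log2 fold change of the members was -0.28 in UCP1 KO, -0.29 in FGF21 KO and -0.33 in dKO against WT, with the median of all genes near 0. The T sum was 19.3 to 33.7 CPM and the B sum 3.92 to 11.6 CPM over the 20 libraries, and the genotypes overlapped.

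The T signalling genes were out of proportion to each other in liver. Zap70 was at 3.92, 5.48, 4.30, 6.26 and 4.98 CPM in WT and at 10.0, 5.64, 5.85, 7.07 and 12.2 CPM in dKO, which overlapped, and its log2 fold change of 0.71 (SE 0.20) had an adjusted p of 0.142 with edgeR, the smallest in liver. Per length of exon the median of Zap70 in liver was 2.08 CPM per kb, against 0.231 for Lck and 0.0449 for Cd3e. In the 9 iWAT libraries with lymph node stroma transcripts the same 3 genes stood at 8.50, 42.0 and 9.86 CPM per kb. The ratio of Zap70 to Lck CPM was 3.48 to 30.7 in liver and 0.183 to 0.224 in those iWAT libraries. Zap70 overlaps the pseudogene Gm18828 on the other strand.

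Cd4 in liver was likewise above Cd8a. Cd4 ranged from 1.15 to 3.90 CPM and Cd8a from 0.0788 to 0.498 CPM, a ratio of 3.50 to 36.0 within a library. Tcf7 ranged from 1.36 to 3.71 CPM, and Cd52 from 2.57 to 7.83 CPM. Cd79a ranged from 0 to 1.00 CPM, Ms4a1 from 0.0335 to 0.996 CPM, Cd3e from 0.0718 to 0.510 CPM and Foxp3 from 0 to 0.249 CPM.

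In muscle the lymphocyte genes were mostly near the limit of counting. Of the 35 genes 13 passed the filter (3 B and 10 T genes), and edgeR and DESeq2 called 0 in any genotype comparison. The highest count of Cd3d, Cd3e or Cd3g in any of the 20 libraries was 5, and that of Cd8a was 3. Cd79a ranged from 1 to 14 counts, Ms4a1 from 1 to 12 and Foxp3 from 1 to 9. Cd4 ranged from 0.103 to 0.538 CPM.

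The number of members with an unadjusted p under 0.05 in muscle was 2 over the 4 genotypes and 0 or 1 in each other comparison. Of all 15114 genes, 0.086% were called over the 4 genotypes, 0.0265% in UCP1 KO, 0.00662% in FGF21 KO and 0.0529% in dKO against WT, 0% in UCP1 KO against dKO, 0.0595% in dKO against FGF21 KO and 0% for the interaction. An unadjusted p under 0.05 was found for 16.3%, 9.81%, 12.9%, 12.2%, 11.7%, 7.96% and 7.48% of them. The smallest adjusted p with edgeR was 0.084, for Btla in FGF21 KO against WT. Btla was at 0.209, 0.255, 0.186, 0.291 and 0.216 CPM in WT and at 0.310, 0.450, 0.555, 0.595 and 0.525 CPM in FGF21 KO, without overlap.

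A few T genes were high in muscle while the CD3 chains were not. Satb1 ranged from 74.5 to 94.8 CPM and made up 81.3% to 88.4% of the T sum of 87.6 to 113 CPM, so this sum does not track lymphocytes. Cd28 ranged from 3.92 to 12.9 CPM and Cd27, a receptor of the TNF family on T cells, from 1.02 to 2.70 CPM. Per length of exon Satb1, Cd28 and Cd27 had medians of 4.41, 1.26 and 0.861 CPM per kb in muscle, against 0.00673 for Cd3e. Cd27 overlaps Vamp1 on the other strand (chr6:125232622-125237010), and Satb1 overlaps 6 annotated unclassified transcripts.

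The levels of the 35 genes by tissue were compared in the 15 WT libraries of BAT, liver and muscle, where 26 genes passed the filter. Between BAT and liver 12 of the 26 were called (46.2%, beside 74.3% of all 16012 genes), 3 higher and 9 lower in BAT. Between BAT and muscle 19 were called (73.1%, beside 71.3%), 16 higher and 3 lower in BAT. Between liver and muscle 22 were called (84.6%, beside 80.6%), 19 higher and 3 lower in liver.

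Cd27, Cd28 and Satb1 were the 3 genes higher in muscle than in BAT and also the 3 higher in muscle than in liver. The log2 fold change of Satb1 in BAT against muscle was -4.06 (SE 0.15, adjusted p 1.04e-13 with edgeR). Higher in BAT than in liver were Cd40, Ctla4 and Satb1. The largest difference the other way was that of Zap70, with a log2 fold change of -5.06 (SE 0.23, adjusted p 1.26e-12 with edgeR) in BAT against liver, followed by Tcf7 (-3.18, SE 0.28), Icos (-2.12, SE 0.37) and Cd4 (-1.98, SE 0.22). Levels across tissues depend on the scaling of tissues with unlike RNA, and iWAT was not part of this fit.

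**Figure D5:**
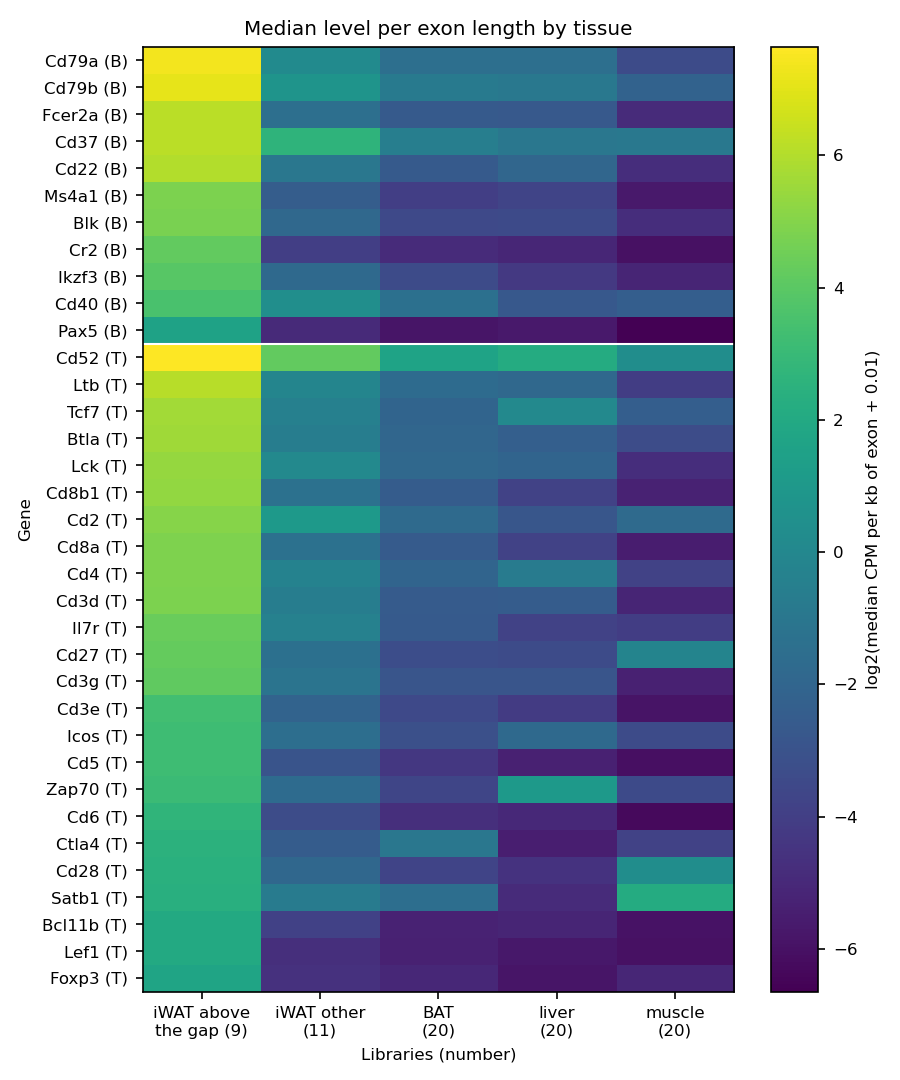
Rows are the 35 genes and columns the 9 iWAT libraries above the gap of the stroma score, the other 11 iWAT libraries, BAT, liver and muscle (20 libraries each). Colour is log2 of the median CPM per kb of exon plus 0.01. The first column is the brightest for every gene. Zap70 in liver (2.08 CPM per kb), Satb1 in muscle (4.41 CPM per kb) and Ctla4 in BAT (0.504 CPM per kb) stand out from the CD3 chains of the same column.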

How the data were processed

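The deposited files held raw counts per gene symbol for 1 library each. The authors sequenced stranded poly(A) libraries, aligned the reads with STAR to mm10 and counted them with HTSeq-count, and the deposited counts were not normalized. The strand setting used in counting is not given in the sources used here. Totals were 28691377 to 50380696 counts per library, and 1 row without a gene name (at most 3.42e-05 percent of the counts) was left out. No 2 of the 760 pairs of libraries of 1 tissue held identical counts.

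Each tissue was fitted separately with edgeR 4.0.16 and limma 3.58.1 in R 4.3.3, with TMM factors, the mean of each genotype and quasi-likelihood tests. Genes entered the test if their highest count exceeded 15, their total exceeded 75 and no more than 10 libraries were at 0. They were called at a Benjamini-Hochberg adjusted p under 0.01. CPM are counts per 1000000 of the scaled library size. Scores are means of log2(CPM + 0.1), and the SE was derived from the fold change and the F statistic. P-values weigh a difference against the spread between libraries within groups, estimated per gene over all groups of a fit together. Alternatives were DESeq2 1.42.0 and other filters, scalings, thresholds, libraries and covariates. The scripts were tested on simulated data. Positions and exon lengths came from the GENCODE M21 annotation of GRCm38 and promoters from RefSeq.

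The members and the other gene lists were chosen with earlier results of these data known. All 35 genes could be named. Values per library or group were given for genes called in a tissue, for Cd79a, Ms4a1, Cd3e, Cd4, Cd8a and Foxp3, and in iWAT for the 3 genes with the highest CPM. Other genes named with values were chosen after their values were seen.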

Additional observations from a re-analysis of the deposited data

Results flagged for a closer look

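In 9 of 76 groups of 5 libraries, 1 library stood far from the other 4 by Dixon's test with a critical value of 0.71, and chance alone gives about 1 in 20 groups. In iWAT these were UCP1 KO 2, with a B sum of 2144 CPM and a T sum of 1696 CPM, and FGF21 KO 2, with a B sum of 30.65 CPM and a T sum of 55.77 CPM. These are the only library of UCP1 KO above the gap of the lymph node stroma score and the only library of FGF21 KO below it. In BAT they were UCP1 KO 2 for Cd3e (0.8749 CPM) and Cd6 (1.275 CPM), FGF21 KO 4 for Cd5 (0.2076 CPM) and dKO 4 for Ctla4 (5.584 CPM). In liver the B sum of UCP1 KO 5 was 11.62 CPM, and the next highest of its genotype was 6.38 CPM.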

How the results depend on the processing

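The counts of called genes in iWAT, liver, muscle and between WT tissues stayed within 1.5 times the reported ones under every single alternative run. The medians in iWAT changed sign without the 9 libraries, from 1.32 to -0.62 in FGF21 KO and from 0.47 to -0.42 in dKO against WT. The exception among the counts is a pair of choices together, DESeq2 without the 9 iWAT libraries, which called 4 of 34 genes over the 4 genotypes (12.8% of all genes), 3 in UCP1 KO against WT (13%) and 1 in dKO against WT (1.07%), where edgeR called 0. In BAT they moved, and the cause was not tested. Without the low-count filter 5 genes were called in dKO against WT (13.1% of all genes). Of the 32 genes DESeq2 called 18 over the 4 genotypes, 10 in UCP1 KO against WT and 14 in dKO against FGF21 KO, beside 38%, 30.3% and 19.5% of all genes. At an adjusted p under 0.05, edgeR called 22 over the 4 genotypes, 12 in UCP1 KO against WT, 18 in dKO against WT and 23 in dKO against FGF21 KO, beside 45.1%, 40.7%, 36.9% and 28% of all genes. With only the 2 genotypes compared in the fit, 2 were called in dKO against WT and 0 in dKO against FGF21 KO, beside 21.8% and 12.8% of all genes. With a covariate for the skeletal muscle score 3 were called over the 4 genotypes and 3 in dKO against WT. With the macrophage score as a covariate 0 were called over the 4 genotypes, 0 in UCP1 KO against WT, 1 in dKO against WT, 0 in dKO against FGF21 KO and 1 in the mean of UCP1 KO and dKO against the mean of WT and FGF21 KO. With UCP1 KO 2 and dKO 2 left out the counts were 7 over the 4 genotypes, 4 in dKO against WT and 13 in that mean contrast. Leaving out 1 library at a time gave 7 to 15 over the 4 genotypes, 1 to 9 in UCP1 KO against WT, 1 to 11 in dKO against WT, 0 to 13 in dKO against FGF21 KO and 15 to 24 in the mean contrast. No paired analysis was possible because the labels carry no replicate numbers or mouse identities, and the library numbers used here follow the order of deposit. Genes at a few counts per library, most of them in muscle and liver, carry a large counting error.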
